A study of Mus musculus with 20 samples.

Results

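The genes described here code for the oxidative phosphorylation complexes of the mitochondrion and were read in mouse utricle, the vestibular organ of the inner ear that senses gravity and linear acceleration. They were chosen by symbol alone, as every gene whose name begins with mt-Nd, mt-Co, mt-Atp or mt-Cytb, with Nduf followed by a, b, c, s or v, with Uqcr, with Atp5, or with Cox4 to Cox8 followed by a, b, c or i, together with Sdha, Sdhb, Sdhc and Sdhd. The rule took 110 of the 25655 genes of the count table. Of these, 13 were mitochondrially encoded and 97 nuclear encoded. The nuclear set held 88 subunit genes, 8 Ndufaf genes, which code for assembly factors of complex I and not for subunits, and 1 pseudogene, Cox5b-ps. No count was found in any library for 5 nuclear genes, Cox7b2, Cox8c, Ndufa4l2, Ndufb11b and Atp5o_1, whereas 89 members had at least 3 counts in every library.

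Oxidative phosphorylation passes electrons from nutrients to oxygen and uses the proton gradient so built to make ATP. Complex I (NADH dehydrogenase) and complex II (succinate dehydrogenase) feed electrons to ubiquinone, complex III (the cytochrome bc1 complex) hands them to cytochrome c, complex IV (cytochrome c oxidase) gives them to oxygen, and complex V is the ATP synthase. Complex II is wholly nuclear encoded, whereas the other complexes join nuclear subunits to core subunits made from mitochondrial DNA. That small circular genome is copied into long RNAs from both strands, which are then processed into separate messengers, and mt-Nd6 alone among its protein genes lies on the opposite strand. Sensory hair cells, which keep up a steady ion transport, are rich in mitochondria.

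All mice were C57BL/6J females operated at 8 weeks of age, and the utricle was taken 4 weeks after surgery. Every mouse carried a subcutaneous pellet rated for 60 days. The sham + v group kept its ovaries and received a vehicle pellet, the OVX + v group was ovariectomized and received a vehicle pellet, the OVX + E2 group was ovariectomized and received estradiol (50 µg per pellet), and the OVX + RAL group was ovariectomized and received raloxifene (2.4 mg per pellet), a selective estrogen receptor modulator. Each group held 5 libraries, which carry the numbers 1 to 5, 6 to 10, 11 to 15 and 16 to 20 in that order, so that any step done in this order cannot be told apart from the group. Whether the libraries came from separate animals is not given in the labels, so the p-values measure the spread between these libraries. The sequencing kit primes on the polyadenylated 3′ end of transcripts and took 1 ng of RNA per library, and each library held 1123053 to 2081747 counts in genes. Levels are given as CPM, the counts of a gene per 1000000 counts of its library, so that 3 counts correspond to 1.44 to 2.67 CPM at these depths.

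The markers of the labelled tissue were present: all 9 hair cell markers had at least 3 counts over the libraries of each group, with a summed level of 895 to 2154 CPM per library. In whole tissue, fewer cells of a type and less RNA per cell cannot be told apart. The skeletal muscle markers, by contrast, were uneven, at 0 to 844 CPM per library, and are given with the muscle isoforms. Library 1 (sham + v) and library 16 (OVX + RAL) stood apart from the other libraries in the mitochondrially encoded counts and in Ptgds, an abundant prostaglandin synthase gene, which took 8.59% and 8.14% of their counts against 3.51 to 5.83% elsewhere. Values without them are given beside the ratio of mitochondrial to nuclear counts, the median fold changes and the calls.

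Because the kit primes on runs of A, the sequences that bear on the counts of the mitochondrial genes are the A runs inside them and the places where neighbouring genes overlap. They were read from the mouse mitochondrial genome of build GRCm39, 16299 bases long, and all 13 gene positions were the same in the count table and in the annotation. A search for AAAAAA on both strands of each gene found at least 1 run of 6 or more A in the sense of mt-Nd1, mt-Nd2, mt-Co1, mt-Nd4 and mt-Nd5, hence in 5 of the 13 genes, and none in the sense of the other 8. The gene mt-Nd6 (chrMT:13552-14070, minus strand) held 0 such runs in its own sense and 3 on the opposite strand, and mt-Cytb held 1 on its opposite strand. The runs of mt-Nd2, mt-Nd5 and mt-Nd6, the 3 genes with the smallest p in the test of any difference among the groups, are printed here on the plus strand, with the A run in capitals, so that the lines for mt-Nd6 show the strand opposite to that gene.
mt-Nd2 (chrMT:4042-4069): actaatcaacAAAAAAAAcccacgatca
mt-Nd2 (chrMT:4304-4329): cttacatgacAAAAAAttgctcccct
mt-Nd2 (chrMT:4716-4741): cagaacttatAAAAAAcaactgtcta
mt-Nd5 (chrMT:12626-12652): aaacgacatcAAAAAAAtcattgcctt
mt-Nd5 (chrMT:13407-13432): atctggttagAAAAAAccatcccaaa
mt-Nd6, opposite strand (chrMT:13756-13782): cacacaaattAAAAAAAcctctataat
mt-Nd6, opposite strand (chrMT:13786-13811): ccccaatactAAAAAAcccaaaatta
mt-Nd6, opposite strand (chrMT:13891-13917): taaataaattAAAAAAActattaaacc

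The mitochondrial genes also run into each other. The genes mt-Nd4l and mt-Nd4 share 7 bases, mt-Atp8 and mt-Atp6 share 43 bases, mt-Atp6 and mt-Co3 share 1 base, and mt-Nd5 and mt-Nd6 share 14 bases on opposite strands. The windows below are on the plus strand with the shared bases in capitals, and they are shown because a read over them lies in both genes, and for mt-Nd5 and mt-Nd6 only its strand tells them apart.
mt-Nd4l and mt-Nd4 (chrMT:10159-10181): ctactacaATGCTAAaaattatt
mt-Atp6 and mt-Co3 (chrMT:8599-8615): aatacataAtgacccac
mt-Nd5 and mt-Nd6 (chrMT:13544-13573): atactcaaTTAATCTCGAGTAAtctcgata

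Whether the authors' counting used the strand of the reads is not given in the sources used here, and without it reads of mt-Nd5 and mt-Nd6, or of the RNA opposite to mt-Nd6, cannot be told apart. Within the overlapping pairs, mt-Nd4l took 3.41 to 8.05% of the counts of its pair with mt-Nd4, and mt-Atp8 took 3.39 to 10.5% of its pair with mt-Atp6. The ratio of mt-Nd6 to mt-Nd5 counts lay between 0.450 and 1.17 over the 20 libraries, with the highest values in library 16 (1.17) and library 1 (0.921). Copies of these sequences elsewhere in the genome are a further limit. For 32 of the 110 members, the last 400 bases of the transcript, or all of a shorter one, had another match in the genome of at least 63 bases and 96.8% identity, which is 2 mismatches in 63 bases. These 32 included mt-Co1, mt-Co2, mt-Co3, mt-Atp6, mt-Atp8, mt-Nd3 and mt-Nd4l, with copies at 100% identity, and mt-Nd2 with a match of 102 bases, but not mt-Nd1, mt-Nd4, mt-Nd5, mt-Nd6 or mt-Cytb. Of the nuclear genes named below they included Cox7c, Uqcrh, Sdhc, Cox6b1, Cox7a2l, Atp5g1, Atp5g2, Atp5l, Ndufs1 and Ndufs3, with 142 matches for Uqcrh. The counts of the 32 are uncertain, since how reads with several matches were placed is not given in the sources used here.

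The 13 mitochondrially encoded genes took a large and variable share of each library, and the 88 nuclear subunit genes a smaller and steadier one. In sham + v the mitochondrially encoded share was 4.80, 11.4, 12.3, 10.7 and 9.92% of all counts. It was 8.36, 10.4, 10.4, 7.16 and 10.9% in OVX + v. In OVX + E2 it was 7.54, 11.7, 11.8, 9.76 and 11.1%, and in OVX + RAL 6.42, 9.31, 9.84, 9.60 and 11.9%. The 4 groups overlapped throughout, with means of 9.82 ± 2.93, 9.43 ± 1.59, 10.4 ± 1.77 and 9.41 ± 1.95% (SD, n = 5 each). The nuclear share was 2.50 ± 0.150% in sham + v, 2.50 ± 0.191% in OVX + v, 2.67 ± 0.287% in OVX + E2 and 2.77 ± 0.319% in OVX + RAL, and ran from 2.28 to 3.08% over all libraries. The SD within groups on the log2 scale was 0.37 for the summed mitochondrially encoded CPM and 0.14 for the summed nuclear CPM. Cytosolic ribosomal protein genes, another large set of housekeeping transcripts, took 6.34 to 9.39%.

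**Figure D1:**
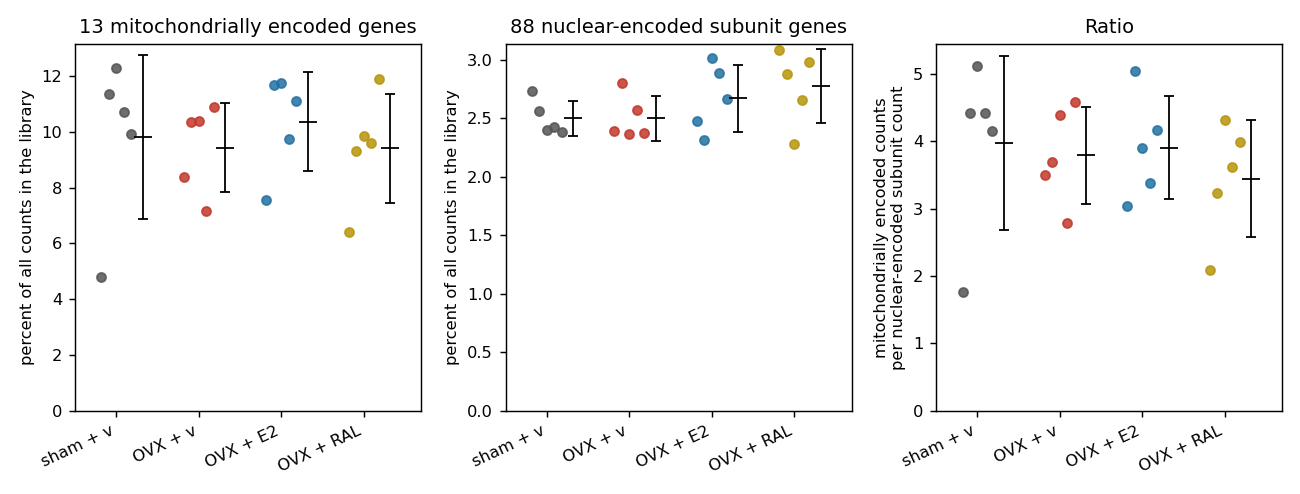
Percent of all counts in the library (vertical axis) taken by the 13 mitochondrially encoded genes (left) and by the 88 nuclear-encoded subunit genes (middle), and the ratio of these counts (right), for the 5 libraries of each group (points) with the mean and SD beside them. All 4 groups overlap in each panel, with mitochondrially encoded shares of 4.80 to 12.3% and nuclear shares of 2.28 to 3.08%.

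The ratio of mitochondrially encoded to nuclear subunit counts had a mean of 3.98 ± 1.29 in sham + v, 3.79 ± 0.725 in OVX + v, 3.91 ± 0.770 in OVX + E2 and 3.45 ± 0.864 in OVX + RAL (SD, n = 5 each). The lowest ratios of the 20 were 1.76 in library 1, 2.08 in library 16 and 2.78 in library 9 (OVX + v), and the highest was 5.13. Against OVX + v the mean log2 ratio differed by 0.04 in OVX + E2, by -0.16 in OVX + RAL and by 0.00 in sham + v, and no test was made of these differences. The groups overlapped, at 0.81 to 2.36 in sham + v, 1.48 to 2.20 in OVX + v, 1.61 to 2.33 in OVX + E2 and 1.06 to 2.11 in OVX + RAL on the log2 scale. Without library 1 the difference of sham + v was 0.28, with the other sham + v libraries at 2.06 to 2.36, and without library 16 that of OVX + RAL was 0.01. Within the complexes that join both genomes, the mean ratio over 20 libraries was 5.56 for complex I, 6.56 for complex III, 3.45 for complex IV and 1.84 for complex V.

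Library 1 was low for the mitochondrial genes as a set and not for the nuclear ones. It held the lowest CPM of the 20 libraries for 9 of the 13 mitochondrially encoded genes, and library 16 for 3. Of the 83 nuclear subunit genes with at least 10 counts in all, library 1 held the lowest CPM for 3 and library 16 for 0. The nuclear share of library 1, 2.74%, was the highest of the sham + v group.

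**Figure D2:**
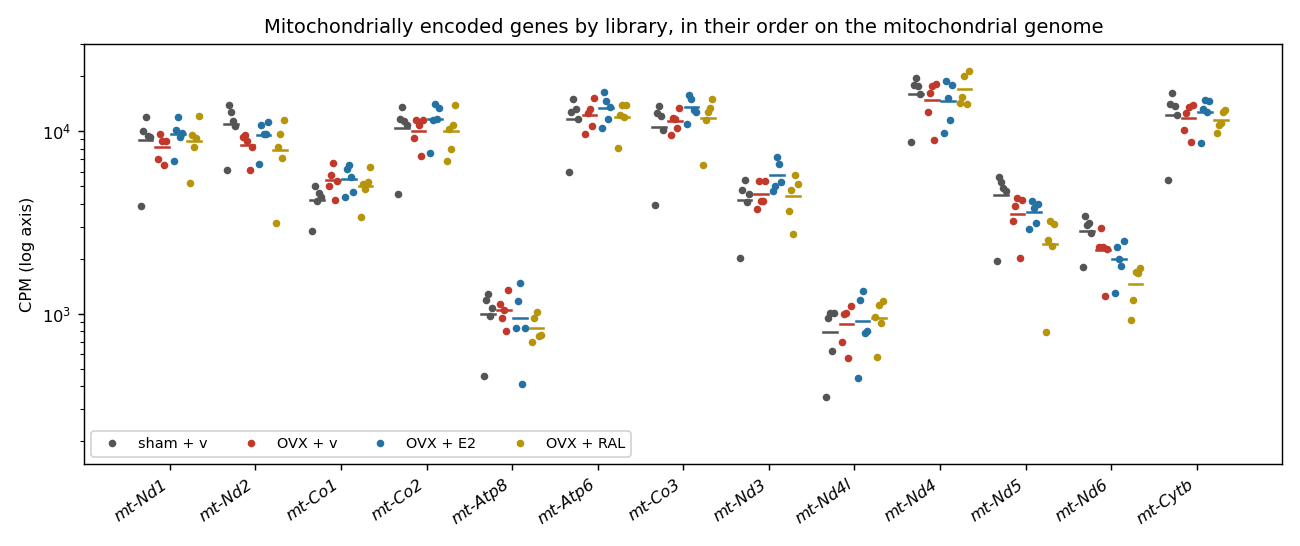
CPM on a log axis (vertical) of the 13 mitochondrially encoded genes in the order of the mitochondrial genome (horizontal), with 1 point per library, colours for the 4 groups and a bar at the group mean. The lowest grey points belong to library 1 (sham + v), and mt-Nd6 averages 2836 CPM in sham + v and 1451 CPM in OVX + RAL.

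Levels are compared between genes per kilobase of transcript, although a 3′ kit counts about the same for a long and a short transcript, and the CPM are given beside them. Among the mitochondrial genes mt-Atp6, which codes for a proton-channel subunit of the ATP synthase, was highest per kilobase at 18105 CPM per kb (12329.6 CPM, mean of 20 libraries). The genes mt-Co2 and mt-Co3, for core subunits of cytochrome c oxidase, followed at 15356 and 15044.5 CPM per kb (10503 and 11795 CPM), then mt-Nd3 at 13554 (4717 CPM) and mt-Nd4 at 11306. In CPM mt-Nd4, for a membrane subunit of complex I, was highest at 15579.9 and mt-Nd4l lowest at 879. The lowest per kilobase was mt-Nd5, at 1918 CPM per kb (3499 CPM), and mt-Co1, for the catalytic subunit of complex IV, stood below mt-Co2 and mt-Co3 at 3242 CPM per kb (5008 CPM). Genes transcribed into shared precursor RNAs were thus counted at unequal levels. The median was 9277 CPM per kb (8878 CPM) over the 13 genes and 219 CPM per kb (245 CPM) over the 83 nuclear subunits.

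Among nuclear subunits the genes with the highest levels belonged to complex IV. The genes Cox6c (1571 CPM, 3123 CPM per kb), Cox7c (1306 CPM, 2419 CPM per kb) and Cox8a (1257 CPM, 2228 CPM per kb), all for small membrane subunits of cytochrome c oxidase, ranked highest on either scale. In complex V the highest in CPM was Atp5g3 (961 CPM, 973 CPM per kb), which codes for the c subunit of the proton-driven ring. Per kilobase it was Atp5k (738 CPM, 1988 CPM per kb). In CPM complex I spread from Ndufb3 (482 CPM), an accessory subunit, down to Ndufs8 (29.9 CPM), which carries iron-sulfur clusters. Per kilobase these stood at 221 and 37.9 CPM per kb, within a range of 13.4 to 1054 for that complex. Complex III spread in CPM from the hinge protein gene Uqcrh (396 CPM) to the core protein gene Uqcrc1 (56.4 CPM). Per kilobase these stood at 278 and 34.1 CPM per kb, within a range of 34.1 to 670. The median level of a subunit was 172 CPM per kb in complex I, 57.0 in complex II, 144 in complex III, 313 in complex IV and 259 in complex V. In CPM the order was another, with 216, 202, 253, 318 and 391 CPM for complexes I to V, so that complex V stood above complex IV.

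**Figure D3:**
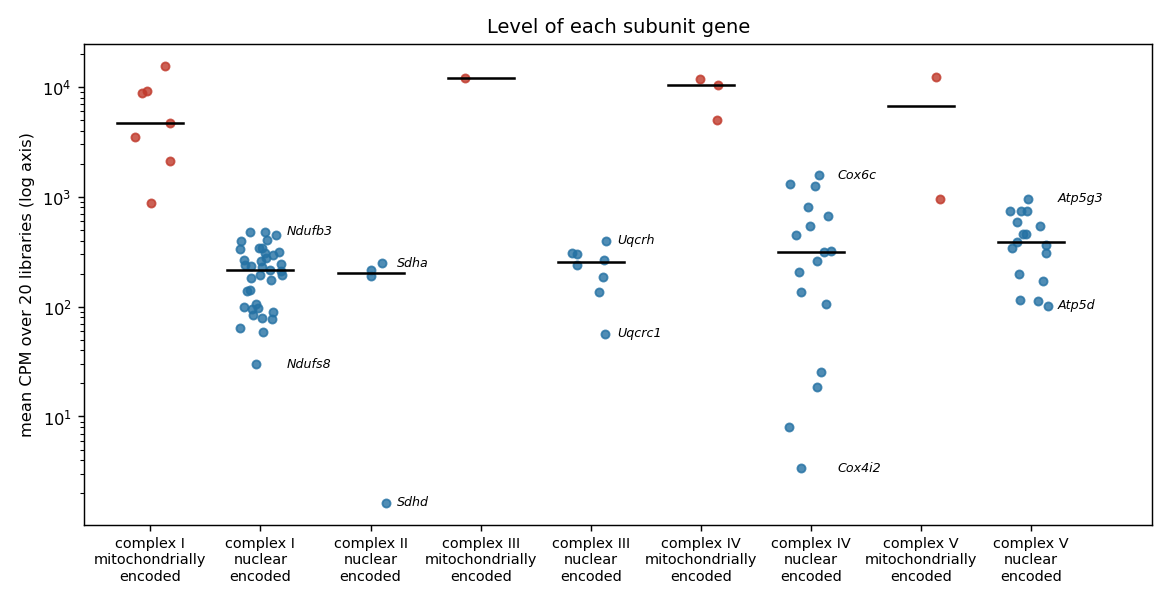
Mean CPM over 20 libraries on a log axis (vertical) of each subunit gene with at least 10 counts, by complex and genome (horizontal), with a bar at the median of each class. Mitochondrially encoded genes (red) lie between 879 and 15579.9 CPM, above nearly all nuclear-encoded ones (blue), and Sdhd lies far below the other complex II genes.

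The 4 genes of complex II were uneven. The flavoprotein gene Sdha stood at 81.0 CPM per kb (249 CPM), the iron-sulfur gene Sdhb at 46.7 (188 CPM) and the membrane anchor gene Sdhc at 67.3 (216 CPM), whereas the partner anchor Sdhd stood at 1.30 CPM per kb (1.64 CPM) with 61 counts in all. It reached 3 counts in 8 of the 20 libraries. These subunits stand in the enzyme in equal number. No other genomic match of the Sdhd transcript end was found by the search above, and why so few reads were counted for it was not tested. The summed complex II level was 597 ± 140 CPM in sham + v, 594 ± 189 in OVX + v, 782 ± 135 in OVX + E2 and 646 ± 140 in OVX + RAL, and the groups overlapped.

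Where a subunit has alternative genes, the form known from most tissues was the abundant one. Cox4i1 stood at 408 CPM per kb (320 CPM) and Cox4i2, a form known from lung and low oxygen, at 4.43 CPM per kb (3.36 CPM). Cox6a1 stood at 1405 CPM per kb (802 CPM) and its heart and muscle form Cox6a2 at 11.9 (8.10 CPM). Cox6b1 stood at 831 CPM per kb (547 CPM) against 30.7 (18.4 CPM) for Cox6b2, a form known from testis. Cox8a stood at 2228 CPM per kb (1257 CPM) against 11.7 (25.2 CPM) for the muscle form Cox8b, and 0 counts for Cox8c. The Cox7a genes were nearer to each other, at 830.4 CPM per kb (676 CPM) for Cox7a2, 363 (454 CPM) for Cox7a2l and 307 (135 CPM) for the heart and muscle form Cox7a1. Cox7b stood at 313 CPM per kb (318 CPM) with no count of Cox7b2. Ndufa4, which codes for a subunit of complex IV despite its name, stood at 201 CPM per kb (106 CPM) with no count of Ndufa4l2. The c subunit of complex V is made from Atp5g1, Atp5g2 and Atp5g3, and these stood at 327, 535 and 973 CPM per kb (200.2, 391 and 961 CPM).

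The muscle isoforms differed in how widely they were counted. Cox7a1 reached 3 counts in 20 of the 20 libraries, Cox8b in 13 and Cox6a2 in 3. Cox6a2 had 68, 2, 51 and 171 counts in libraries 6, 7, 16 and 17, of the OVX + v and OVX + RAL groups, and 0 counts in every other library, sham + v and OVX + E2 included. In CPM these were 42.4, 1.25, 26.2 and 92.1. The summed level of 15 skeletal muscle markers was highest in libraries 16 (844 CPM), 17 (585 CPM) and 6 (397 CPM), which are the 3 libraries highest in Cox6a2. It ranged from 0 to 198 CPM in sham + v, 6.27 to 397 in OVX + v, 0.890 to 178 in OVX + E2 and 3.36 to 844 in OVX + RAL. Of the 15 markers, 9, 11, 8 and 14 reached 3 counts over the libraries of these groups, and the slow myosin gene Myh7 was at 0 in all. Cox8b was at 36.0, 0, 21.3, 75.5 and 0 CPM in sham + v. It was at 0, 94.7, 6.80, 11.9 and 48.1 CPM in OVX + v, at 0, 0, 0, 0.890 and 2.81 CPM in OVX + E2, and at 4.63, 52.2, 4.70, 27.3 and 118 CPM in OVX + RAL. All OVX + RAL libraries thus lay above all OVX + E2 libraries in Cox8b, a separation found for 0.619% of all genes. The 3 libraries highest in Cox8b, 20, 7 and 4, had 3.36, 48.3 and 3.35 CPM of the muscle markers, and the 3 highest in the markers, 16, 17 and 6, had 4.63, 52.2 and 0 CPM of Cox8b. The 4 brown fat markers had summed levels of 0 to 25.3 CPM in sham + v, 0 to 22.1 in OVX + v, 0 to 1.403 in OVX + E2 and 0 to 35.2 in OVX + RAL, and 3, 1, 0 and 1 of them reached 3 counts over the libraries of these groups. The defining marker Ucp1 was at 0 in all. What part muscle fibres or brown fat in the dissection have in these isoforms was not tested.

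The effect of ovary removal was addressed by comparing sham + v with OVX + v. With edgeR's quasi-likelihood test and Benjamini-Hochberg adjustment over 13825 genes, 0 of 104 members tested passed an adjusted p of 0.05, and 2 genes of all passed (0.0145%). At an unadjusted p of 0.05 there were 6 members, 3 higher and 3 lower in sham + v, against 12.5% of all genes (5.09% higher and 7.4% lower), and DESeq2 called 0 members. For 0 members did the CPM of the 2 groups separate without overlap, as they did for 0.203% of genes upwards and 0.297% downwards. Of the members with a mean of at least 50 CPM, 46 of 91 had a higher fitted level in sham + v, beside 50.6% of all genes of that level. The median log2 fold change was 0.05 for the mitochondrially encoded genes and 0.02 for the nuclear subunits, with 42 of 83 higher, beside -0.02 for all genes tested. Library 1 moved both medians, which without it were 0.23, with 12 of 13 higher, and -0.04, with 36 of 83 higher. With each library left out in turn they ran from -0.07 to 0.23 and from -0.04 to 0.07, so that neither kept a direction. The smallest p belonged to mt-Nd2, a core membrane subunit of complex I. It stood at 6102, 13871, 12656, 11299.5 and 10667 CPM in sham + v and at 9292, 9463, 8829, 6148 and 8223 CPM in OVX + v. All sham + v libraries but library 1 lay above every OVX + v library. The log2 fold change was 0.38, with an edgeR SE of 0.10, an SE from the spread between libraries of 0.24 and an edgeR adjusted p of 0.363. The 3 lower members were mt-Co1 (-0.36), Ndufa6 and Cox6a2. With library 1 left out, mt-Nd2 and mt-Nd5 passed the edgeR threshold as higher in sham + v, among 10 of 13600 genes. In limma mt-Nd2 did so among 4 genes called, and in a fit of all 4 groups among 2.

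On the nuclear side of this comparison, Ndufa6, for a small accessory subunit of complex I (log2 fold change -0.77, SE 0.32), was the gene with the smallest p that could be followed in every library. It was at 436, 229, 153, 198 and 151 CPM in sham + v and at 389, 426, 507, 307 and 367 CPM in OVX + v. The sham + v libraries other than library 1 lay below all OVX + v libraries, and its edgeR adjusted p was 0.363. Among members of at least 50 CPM, the log2 fold change was 1.02 for Ndufs3 and -0.85 for Ndufa8, neither past the threshold. Ndufs3 codes for a core subunit of the arm of complex I that takes electrons from NADH towards ubiquinone.

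**Figure D4:**
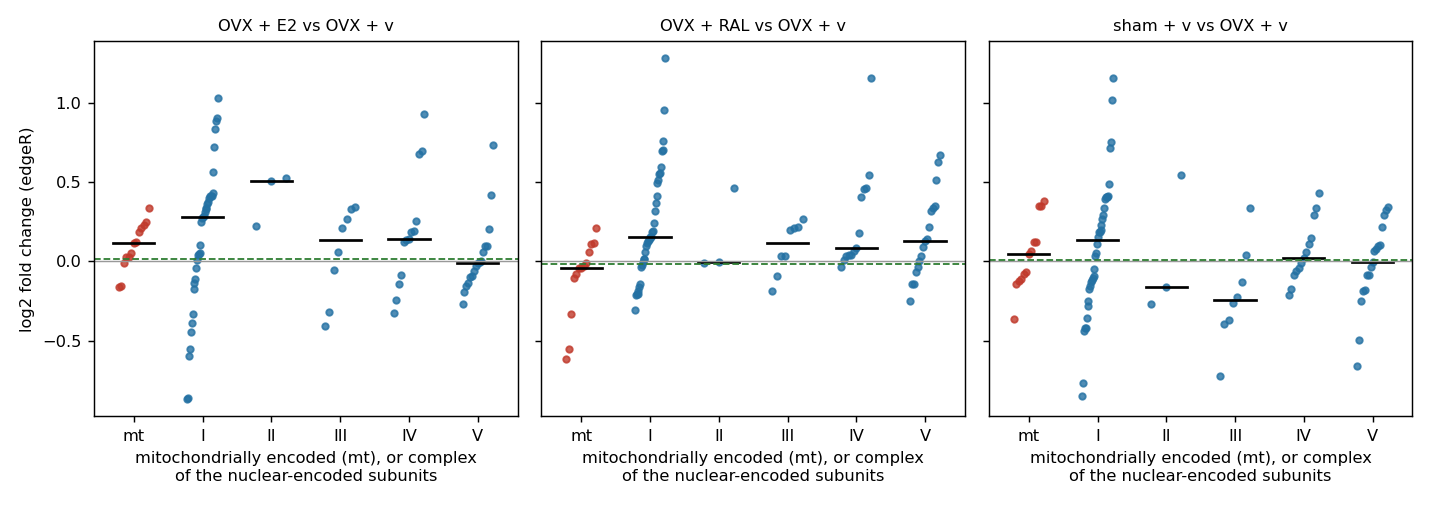
Log2 fold change from edgeR (vertical) of each member with a mean of at least 50 CPM in the 3 comparisons with OVX + v, for the mitochondrially encoded genes (red) and the nuclear subunits by complex (blue), with a black bar at the class median and a dashed line at the median of all genes of at least 50 CPM. The mitochondrially encoded medians are 0.12, -0.04 and 0.05, and the nuclear genes reach down to -0.87 with estradiol.

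The comparison of OVX + E2 with OVX + v asked what estradiol replacement changes after ovariectomy. Again 0 of 104 members passed in edgeR, where 8 of 13695 genes did (0.0584%), and DESeq2 called 0. At an unadjusted p of 0.05 there were 8 members, 6 higher and 2 lower, against 4.64% of all genes higher and 9.3% lower. The CPM of 0 members separated without overlap, where 0.161% of genes did so upwards and 0.672% downwards. Of the 6, mt-Co3, mt-Nd3, mt-Co2, mt-Nd1 and mt-Nd2 were mitochondrially encoded and Cox7a2l was nuclear. The 2 lower were Cox6a2 and Cox8b, described above. For mt-Co3 the OVX + v libraries were at 9516, 11802, 11633, 10335 and 13395 CPM and the OVX + E2 libraries at 10984, 15737, 15072, 12983 and 12681 CPM. The groups overlapped, with 2 OVX + E2 libraries above all OVX + v libraries. The log2 fold change was 0.25, with an edgeR SE of 0.06, a spread SE of 0.13 and an edgeR adjusted p of 0.1003. For mt-Nd3, a small membrane subunit of complex I, OVX + v was at 3730.1, 5356, 4139, 4156 and 5338 CPM and OVX + E2 at 4681, 4993, 7236, 6578 and 5249 CPM. Its log2 fold change was 0.34, with a spread SE of 0.16 and an edgeR adjusted p of 0.351. The 5 mitochondrially encoded genes passed with library 11 (OVX + E2) left out, among 17 of 13512 genes, and mt-Co3 passed with library 10 (OVX + v) left out, among 11 of 13495. In limma on log2(CPM + 1), mt-Nd1, mt-Co2, mt-Co3 and mt-Nd3 passed among 11 of 13695 genes.

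The OVX + E2 libraries had fewer genes detected than those of OVX + v, with 6530 to 8907 genes at 3 counts or more against 9381 to 9929. Their totals were 1123053 to 1507667 against 1435156 to 2019032 counts. The sham + v libraries were at 10143, 8781, 9014, 8507 and 8087 genes, and all but library 1 lay below every OVX + v library. The part of these numbers in the estradiol and sham comparisons was not tested. The median log2 fold change with estradiol was 0.12 for the mitochondrially encoded genes, with 10 of 13 higher, and 0.10 for the nuclear subunits, with 51 of 83 higher. With each library left out in turn these ran from 0.03 to 0.23 and from 0.08 to 0.17. Over all genes tested the median was -0.06, and over those of at least 50 CPM 0.01. With TMM scaling the nuclear count turned to 41 higher and 42 lower and the 2 medians to 0.01 and -0.01, while genes of at least 50 CPM moved to -0.10. Relative to those genes the medians were 0.11 and 0.09 under either scaling. Of the 91 members of at least 50 CPM, 59 had a higher fitted level with estradiol, beside 51% of all genes of that level. Among the nuclear subunits of that level, the medians were 0.28 for complex I (25 of 36 higher), 0.51 for complex II (3 of 3), 0.14 for complex III (5 of 8), 0.14 for complex IV (9 of 13) and -0.01 for complex V (7 of 17). The largest differences were Ndufs1 (1.03), for the largest subunit of complex I, and Cox7a1 (0.93), against Ndufb9 and Ndufb7 (both -0.87), none past the threshold in edgeR.

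For OVX + RAL against OVX + v, the raloxifene comparison, 0 of 105 members passed in edgeR, 4 of 14002 genes did (0.0286%), and DESeq2 called 0 members. The gene mt-Nd5 was called as lower in limma, among 5 genes called, and in an edgeR fit of all 4 groups, among 4. At an unadjusted p of 0.05 there were 8 members, 6 higher and 2 lower, against 5.98% and 6.13% of all genes. The 2 lower were mt-Nd6 (log2 fold change -0.62) and mt-Nd5 (-0.56), with mt-Atp8 (-0.33) next in order of p, and the higher ones included the nuclear subunit genes Cox7a1, Ndufc2, Atp5l and Ndufc1 and the assembly factor gene Ndufaf6, which had 34 counts in all. The mitochondrially encoded genes had a median log2 fold change of -0.04, with 4 of 13 higher, and the nuclear subunits 0.14, with 61 of 83 higher (68 under TMM scaling). Without library 16 the mitochondrially encoded median turned to 0.08, with 10 of 13 higher, and the nuclear median was 0.10, with 57 of 83 higher. With each library left out in turn these ran from -0.11 to 0.08 and from 0.10 to 0.21. Without library 16 edgeR called 0 members and 11 of 13813 genes. At an unadjusted p of 0.05 in that fit there were 13 members, 11 higher and 2 lower, beside 1060 genes in all. All genes tested had a median of -0.03, and 48.3% of genes of at least 50 CPM were higher against 62 of 91 members of that level. Complex IV had 12 of 13 such nuclear subunits higher, with a median of 0.09, and complex I 26 of 36, with a median of 0.15.

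Cox7a1 (chr7:29883569-29885503) was the member whose libraries separated in this comparison. It was at 71.0, 137, 96.4, 34.2 and 84.3 CPM in OVX + v and at 166, 286, 147, 160.0 and 186 CPM in OVX + RAL. Every OVX + RAL library thus lay above every OVX + v library, a separation found for 0.264% of genes in that direction, and 0 members lay wholly below OVX + v, where 0.314% of genes did. The log2 fold change was 1.16 (SE 0.42) and the edgeR adjusted p 0.402. In sham + v it was at 41.4, 156, 149.9, 19.6 and 167 CPM, and in OVX + E2 at 82.2, 177, 262, 103 and 179.6 CPM. Library 17 was highest in both Cox7a1 and Cox6a2. The summed muscle markers of libraries 16 to 20 were at 844, 585, 140.4, 122 and 3.36 CPM, and those of OVX + v at 6.27 to 397 CPM, and their part in the Cox7a1 difference was not tested.

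When all 20 libraries were fitted together and OVX + v was compared with the average of the 3 remaining groups, edgeR called 0 of 105 members and 283 of 14870 genes (1.9%). That number of genes was 3 to 5 when any 1 of the 15 sham + v, OVX + E2 and OVX + RAL libraries was left out, and 181 to 229 when 1 OVX + v library was. At an unadjusted p of 0.05 it gave 4 members against 8.78% of all genes, with Cox6a2 higher and mt-Nd2, mt-Nd1 and mt-Nd4 lower in OVX + v, where 7.42% of genes were higher and 1.35% lower. DESeq2 called 0 members.

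A test of any difference among the 4 groups, in the same fit, was where members passed. In edgeR 5 of 105 members passed among 21 of 14870 genes (0.141%), all of them mitochondrially encoded. They were mt-Nd5 (adjusted p = 3.92e-08), mt-Nd2 (adjusted p = 7.58e-06), mt-Nd6 (adjusted p = 2.50e-05), mt-Co3 (adjusted p = 0.00338) and mt-Nd3 (adjusted p = 0.0399). At an unadjusted p of 0.05 there were 14 members against 16.3% of all genes, 10 of the 13 mitochondrially encoded genes and 3 of the 83 nuclear subunits. The genes mt-Nd2, mt-Nd5 and mt-Nd6 passed with any 1 of the 20 libraries left out. DESeq2 called 0 members, with 10 at an unadjusted p of 0.05, and a robust edgeR fit called mt-Nd6 alone. With the filterByExpr filter 0 members and 1 gene passed, and with TMM scaling mt-Nd2, mt-Nd4, mt-Nd5 and mt-Nd6 passed, without mt-Co3 and mt-Nd3. With libraries 1 and 16 both left out, 7 members passed, among them mt-Nd2, mt-Co3, mt-Nd5 and mt-Nd6 but not mt-Nd3. These adjusted p-values rest on edgeR's estimate of the spread, which for these abundant genes was below that between the libraries. For mt-Nd5 in OVX + RAL against OVX + v, the edgeR SE was 0.18 and the SE from the libraries 0.42.

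The gene mt-Nd6, for a membrane subunit of complex I, was highest in sham + v and lowest in OVX + RAL. It was at 1802, 3416, 3069, 3128 and 2763 CPM in sham + v. In OVX + v it was at 2330.4, 2964, 2310.4, 1249 and 2267 CPM. It was at 1305, 2331, 2003, 1820.0 and 2499.9 CPM in OVX + E2, and at 926, 1194, 1689, 1663 and 1784 CPM in OVX + RAL. The 5 OVX + RAL libraries lay below all 5 sham + v libraries, a separation found for 0.289% of genes in that direction, while neighbouring groups overlapped. The group means were 2836 ± 623, 2224 ± 616, 1992 ± 468 and 1451 ± 372 CPM (SD, n = 5 each). On the scale of log2(CPM + 1), sham + v was 0.98 above OVX + RAL (SE 0.24). In a two-sided exact permutation test over 252 groupings its p was 0.00794, the smallest this design can give, or 0.0476 adjusted over 6 pairs of groups and 0.238 over the 30 tests of the 5 genes. This test was added after the values had been seen. In the order of the group means above, summed neuron markers averaged 227, 201, 153 and 139 CPM. Melanocyte markers averaged 687, 917, 742 and 1228 CPM, and supporting cell markers 4160, 4034, 3861 and 4017 CPM. The groups overlapped in each of these. What part the mix of cells has in the mt-Nd6 levels was not tested.

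For mt-Nd5, a core membrane subunit of complex I and neighbour of mt-Nd6, the sham + v libraries were at 1955, 5625, 5252, 4879.5 and 4700.5 CPM. The OVX + v libraries were at 3221, 3874, 4327, 2028 and 4172 CPM. OVX + E2 was at 2901, 4155, 3777, 3123 and 4009 CPM and OVX + RAL at 795, 2539, 3228, 2336 and 3086 CPM. Library 1 fell among the OVX + RAL values, and the other sham + v libraries lay above all other libraries. OVX + RAL was lower than OVX + E2 by 0.72 on the log2(CPM + 1) scale (SE 0.38, exact permutation p = 0.0397, 0.291 adjusted over 30 tests), and the gap to sham + v was 0.96 (SE 0.46, exact permutation p = 0.0556). Both gaps include library 16, at 795 CPM against 2336 to 3228 CPM in the other OVX + RAL libraries. Neither gap was computed without that library. For mt-Nd2 the OVX + E2 libraries were at 6572, 10781, 9663, 9588 and 11146 CPM and the OVX + RAL libraries at 3132, 8187, 9657, 7138 and 11516 CPM. For mt-Nd2, mt-Co3 and mt-Nd3 the smallest exact permutation p of any pair of groups was 0.0714, for mt-Nd3 in sham + v against OVX + E2.

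Since the mitochondrially encoded genes moved together from library to library, each was also expressed as a share of all mitochondrially encoded counts, which sets aside the level of the set. The share of mt-Nd6 was 3.75, 3.01, 2.50, 2.92 and 2.79% in sham + v. It was 2.79, 2.86, 2.22, 1.74 and 2.09% in OVX + v. In OVX + E2 it was 1.73, 1.997, 1.70, 1.87 and 2.25%, and in OVX + RAL 1.44, 1.28, 1.72, 1.73 and 1.501%. Every sham + v library was above every OVX + E2 and OVX + RAL library, and every OVX + RAL library was below every OVX + v library. The shares of mt-Nd5 averaged 4.52 ± 0.352, 3.69 ± 0.503, 3.49 ± 0.278 and 2.46 ± 0.751% in the same order, and those of mt-Nd2 11.3 ± 1.08, 8.98 ± 1.32, 9.21 ± 0.756 and 8.12 ± 2.05% (SD, n = 5 each). Both genes were higher in every sham + v library than in any OVX + E2 or OVX + RAL library. Library 1, the lowest in the mitochondrially encoded sum, had the highest shares of mt-Nd2 and mt-Nd6 in its group and the lowest share of mt-Nd5. The share of mt-Co3 averaged 10.4 ± 1.31% in sham + v and 13.1 ± 1.15% in OVX + E2, without overlap.

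**Figure D5:**
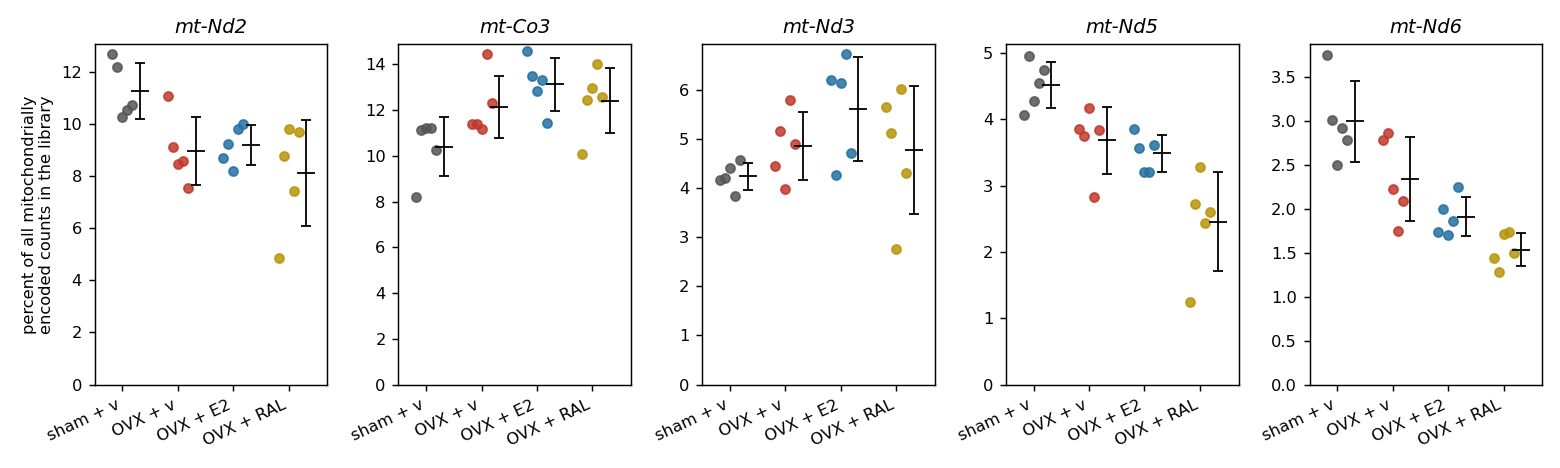
Percent of all mitochondrially encoded counts in the library (vertical axis) taken by mt-Nd2, mt-Co3, mt-Nd3, mt-Nd5 and mt-Nd6, for the 5 libraries of each group (points) with the mean and SD beside them. The mt-Nd6 share averages 2.99% in sham + v, 2.34% in OVX + v, 1.91% in OVX + E2 and 1.54% in OVX + RAL.

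In these shares, 3 members were lower in OVX + E2 than in sham + v without overlap, where 0.451% of all genes counted per mitochondrially encoded read were, and 1 was higher (0.0605%). In OVX + RAL against sham + v 3 were lower (0.222%), and in OVX + RAL against OVX + v mt-Nd6 was lower (0.279%). The division takes out the level that the mitochondrially encoded genes have in common, which it does not do for other genes. The percentages of all genes are therefore not a like measure for these members. When the mitochondrially encoded total replaced the library size in edgeR, 0 members passed the test of any difference among the 4 groups, with 8 at an unadjusted p of 0.05. The smallest adjusted p was then 0.0999, for mt-Nd5. The 3 lower genes are mt-Nd2, mt-Nd5 and mt-Nd6. Their A runs were printed above because these genes had the smallest p in these data, so meeting them here is no further result. On the genome mt-Nd5 and mt-Nd6 adjoin, while mt-Nd2 lies apart from them. The gene mt-Nd4, with 2 sense A runs, averaged 16.5 ± 1.01% in sham + v and 15.4 ± 1.77% in OVX + v. It averaged 13.97 ± 1.9995% in OVX + E2 and 18.3 ± 3.06% in OVX + RAL. In the same order mt-Nd1, which also holds a sense A run, averaged 8.95, 8.69, 9.24 and 9.30%. For mt-Co1, another such gene, the shares were 4.47, 5.73, 5.32 and 5.31%. The part of A runs in these shares was not tested.

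Between groups other than OVX + v, few nuclear members separated in CPM. Cox5a, for a subunit of the oxidase that faces the matrix, was at 230.4, 303, 264, 207 and 199 CPM in sham + v and at 152, 150.3, 164, 57.0 and 187 CPM in OVX + E2, where 0.417% of genes were lower without overlap. Ndufa8 and Uqcrq, for small subunits of complexes I and III, were higher in every OVX + RAL library than in any sham + v library, where 0.356% of genes were. Ndufa8 was at 76.5, 28.9, 20.2, 32.4 and 42.4 CPM in sham + v and at 160.5, 97.5, 90.5, 122 and 76.9 CPM in OVX + RAL. Uqcrq was at 208, 167, 101, 200.2 and 118 CPM in sham + v and at 428, 269.8, 246, 295 and 346 CPM in OVX + RAL. These separations were not tested further.

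Genes that build and supply the complexes gave no calls either. In edgeR 0 genes passed, in each of the 3 comparisons with OVX + v, among the 48 listed assembly factors and cytochrome c genes, 26 genes of mitochondrial DNA expression found in the table, 16 regulators of mitochondrial biogenesis, 14 tricarboxylic acid cycle genes, 83 cytosolic and 78 mitochondrial ribosomal protein genes. At an unadjusted p of 0.05, 4, 1 and 2 assembly genes came up with estradiol, raloxifene and sham surgery, 2, 1 and 2 genes of mitochondrial DNA expression, and 0 tricarboxylic acid cycle genes in each, beside 1908 of 13695, 1696 of 14002 and 1727 of 13825 genes in all. Tfam, which packs mitochondrial DNA and starts its transcription, averaged 46.3 CPM in OVX + E2 and 31.9 CPM in OVX + v (log2 fold change 0.54, SE 1.27). Polrmt, the mitochondrial RNA polymerase, averaged 48.0 against 17.6 CPM (1.44, SE 1.44), and Lrpprc, which stabilizes mitochondrial messengers, 45.2 against 30.0 CPM (0.59, SE 1.30). Ppargc1a, a coactivator of mitochondrial biogenesis, averaged 33.9 against 31.9 CPM (0.09, SE 1.41). Cs, the citrate synthase gene often taken as a measure of mitochondrial content, averaged 146 against 68.8 CPM (1.08, SE 0.65), with an edgeR adjusted p of 0.564. Each of these differences was less than 2 SE. These genes were named after their values were seen, and all were higher with estradiol. Their lists were mixed in that comparison. Mitochondrial DNA expression had 15 genes higher and 8 lower, the regulators 9 and 6, and the tricarboxylic acid cycle 8 and 6. The assembly list had 20 higher and 25 lower. In sham + v against OVX + v, mitochondrial DNA expression had 9 higher and 15 lower.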

How the data were processed

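Utricle RNA of 4 groups of 5 libraries was sequenced by a 3′ kit. Per the study's methods the authors trimmed adaptors, poly(A), low-quality ends and the first 12 nucleotides, dropped reads under 20 nucleotides and mapped the rest to GRCm39 in CLC Genomics Workbench with default settings. How strand and multiply matching reads were handled is not given in the sources used here. The deposited total counts per gene were used. The deposited TPM and CPM columns were left out, as were the authors' fold changes, p-values and comparison tables. The OVX + v libraries occur in all 3 tables with identical counts, and 0 columns belonged to another series. Each library held 1123053 to 2081747 counts, and intervals were not drawn, since reads without molecular identifiers are not independent molecules.

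CPM were computed from the column totals. A gene whose summed count reached 10 in the libraries of a fit was tested with edgeR 4.0.16 (quasi-likelihood, column totals as library sizes, Benjamini-Hochberg adjustment, threshold 0.05) in R 4.3.3, for each group against OVX + v on those 2 groups, and, over all 20 libraries, for OVX + v against the mean of the other 3 groups and for any difference among the 4 groups. The comparisons with OVX + v share its libraries. The scripts were tested on simulated data. Alternatives were TMM scaling, DESeq2 1.42.0, limma 3.58.1 on log2(CPM + 1), no filter, filterByExpr, robust dispersions, a fit of all 4 groups and each library left out. Added after seeing the data were the mitochondrially encoded total as library size, the omission of libraries 1 and 16 together, cytosolic ribosomal protein genes in place of nuclear subunits, and exact permutation tests (scipy 1.17.1). A spread SE is that of the difference of mean log2(CPM + 1).

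Genes named were all mitochondrially encoded members, complex II, subunits with alternative genes, the highest and lowest of each complex, members past a threshold, and in each comparison with OVX + v the 3 members a direction with the smallest p and the 2 with the largest change at 50 CPM or more. Atp5k, Cox7c, Atp5l, Ndufc1, Ndufaf6, Cox5a, Uqcrq and the pathway genes named fall outside this rule and were named after their values were seen. Not every gene the rule takes is reported here. The members and lists were chosen with earlier results of these data known. No 2 libraries of a group held identical values in 40 pairs compared.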

Additional observations from a re-analysis of the deposited data

Results flagged for a closer look

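The values of each group of 5 libraries were searched for a library far from the others by Dixon's test. Of 270 groups tested over 68 quantities, 13 (4.81%) held such a library, and chance gives about 1 in 20. For 3 of the 13 it was library 1 (sham + v). Its log2 ratio of mitochondrially encoded to nuclear-encoded counts was 0.81 against 2.06 to 2.36 in the other sham + v libraries. Its mt-Nd5 level was 1955 CPM against 4700.5 to 5625, and its Ndufa6 level 436 CPM against 151 to 229. Ptgds took 8.59% of its counts, the highest share of the 20 libraries.

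The muscle isoforms gave 3 more. Cox6a2 was at 42.4 CPM in library 6 against 0 to 1.25 in the other OVX + v libraries, and at 92.1 CPM in library 17 against 0 to 26.2 in the other OVX + RAL libraries. Cox7a1 was at 286 CPM in library 17 against 147 to 186. Both libraries were also among the 3 highest in summed skeletal muscle markers.

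The lung form Cox4i2 was at 23.0 CPM in library 10 (OVX + v) and at 5.77 CPM in library 19 (OVX + RAL), with 0 in the other libraries of each group. In OVX + v, library 7 had a summed nuclear complex I level of 9087 CPM against 7436 to 7716, and a Sdhb level of 201 CPM against 119 to 142. Ndufs1 was at 18.1 CPM in library 6 against 50.8 to 55.6 in the other OVX + v libraries. Cox6a1 was at 1298 CPM in library 2 (sham + v) against 695 to 845. The share of mt-Co1 among mitochondrially encoded counts was 4.18% in library 15 (OVX + E2) against 5.35 to 5.78%.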

How the results depend on the processing

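The median fold changes and ratios of the sets were within 1 SD of single libraries of their main value under the alternatives run, except the nuclear median with estradiol. With the mitochondrially encoded total as library size it was -0.03, against 0.10 in the main fit and an SD of 0.14. The differences, other than the nuclear median with raloxifene, are themselves smaller than that SD, so this says little of their stability. With each library left out in turn, the log2 ratio of mitochondrially to nuclear-encoded counts ran from -0.06 to 0.13 with estradiol, from -0.26 to 0.01 with raloxifene and from -0.11 to 0.28 in sham + v, and so changed direction in each. Of the counts of genes past the threshold, OVX + E2 against OVX + v gave 8 genes, and 35 in DESeq2, 1 with filterByExpr and 4 with robust dispersions. OVX + RAL gave 4 genes, and 0 with filterByExpr and 0 with robust dispersions (171 and 1668 at an unadjusted p of 0.05 in edgeR). Sham + v gave 2 genes, 1 with TMM, 1 in DESeq2, 0 with filterByExpr, 0 with robust dispersions, 4 in limma and 1 with the mitochondrially encoded total as library size. OVX + v against the mean of the others gave 283 genes, 25 in DESeq2 and 1 with filterByExpr. Any difference among the groups gave 21 genes, 2 in DESeq2, 1 with filterByExpr, 5 with robust dispersions and 11 with the mitochondrially encoded total.

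Of members, limma called 4 with estradiol, 1 with raloxifene (mt-Nd5) and 1 in sham + v (mt-Nd2), and a fit of all 4 groups called the same 1 and 1, where the pairwise edgeR fits called 0. For any difference, 5 members passed, 4 with TMM, 0 in DESeq2 (10 at an unadjusted p of 0.05), 0 with filterByExpr (4), 1 with robust dispersions and 0 with the mitochondrially encoded total (8). The cause of these differences was not tested. With each library left out in turn, genes called were 6 to 17 (estradiol), 3 to 11 (raloxifene), 1 to 10 (sham), 3 to 229 (OVX + v against the others) and 17 to 28 (any difference), and members called 0 to 5, 0 throughout, 0 to 2, 0 throughout and 3 to 7. The estradiol members passed without library 11 (5) or 10 (1), and the sham + v ones without library 1 (2). For OVX + v against the others the count of genes was 3 to 5 without any 1 library of sham + v, OVX + E2 or OVX + RAL, and 181 to 229 without 1 of OVX + v.

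Counts were too few to follow members such as Sdhd, which reached 3 counts in 8 of 20 libraries. The median coefficient of variation within groups was 35.5% for the nuclear subunits and 24.9% for the mitochondrially encoded genes, and the cause of this was not tested. No paired analysis was possible because the groups share no library numbers.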
